A study of Mus musculus with 15 samples.

Results

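The genes described here are 36 genes that are typical of T cells and natural killer (NK) cells, measured in 15 RNA sequencing libraries of sorted mouse alveolar macrophages. They were chosen by name, with earlier results of these data known, as rows of the deposited count table. All 36 were found among its 40510 genes. They comprise the T cell receptor and CD3 complex, the coreceptors, proximal signalling proteins, surface receptors, lymphocyte transcription factors and the cytotoxic genes shared by T and NK cells. Alveolar macrophages, the resident phagocytes of the lung surface, were washed out by bronchoalveolar lavage and sorted as CD45+ Ly6G- SiglecF+ CD11c+ cells, a gate that uses no T or NK cell marker. Both genotypes were on the C57BL/6 background and naive. The knockout mice lacked Cybb, which encodes the catalytic subunit of the phagocyte NADPH oxidase and is mutated in chronic granulomatous disease.

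There were 5 groups of 3 libraries: wild-type and knockout CD11b-low cells at 4 weeks of age, the same 2 populations at 12 weeks, and at 12 weeks also knockout cells with high CD11b. A CD11b-high group of wild-type mice was not analysed here. Each library came from about 50000 sorted cells of 2 to 3 pooled mice, and the 3 replicates of a group are given as independent. Values per library are in the order of replicates 1, 2 and 3 throughout.

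T cells recognise antigen through a receptor of paired alpha and beta or gamma and delta chains. These chains signal only through the invariant CD3 gamma, delta, epsilon and zeta subunits, whose tails are phosphorylated by Lck and then bind Zap70. NK cells lack this receptor and use activating receptors such as NKp46 (Ncr1) and NK1.1 (Klrb1c), and they share granzymes and perforin with cytotoxic T cells. In the healthy lung few lymphocytes lie in the airspace, and resident memory and innate-like T cells sit mainly in the tissue beneath it.

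Libraries held 22856331 to 36458893 counts (median 32415469), and 13284 genes had enough counts for testing. Of the 36 genes, 34 were tested, while Prf1 and Ncr1 had too few counts. Levels are in CPM, a gene's share of a library's counts, after TMM scaling. Cybb, the targeted gene, averaged 149 to 204 CPM in the knockout groups and 1026 to 1795 CPM in the wild-type groups. Sums of cell type markers are instead in CPM of the library total, without TMM scaling. The total of 14 alveolar macrophage markers was between 37110 and 67640 CPM in each library, and Ly6g, a neutrophil marker used to exclude cells, had 0 counts throughout. 

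One member behaved unlike the others in level. Cd2, an adhesion receptor of T and NK cells that binds CD48 in mice, was abundant in every macrophage library, at a mean of 1182 CPM over the 6 wild-type libraries. Cd2 measured 1331, 1834 and 1515 CPM in the wild-type, 1322, 1130.0 and 1495 CPM in the CD11b-low knockout and 1119, 844 and 846 CPM in the CD11b-high knockout libraries at 12 weeks. Cd2 at 4 weeks measured 761, 846 and 804 CPM in wild-type and 873, 844 and 901 CPM in knockout libraries. The wild-type and CD11b-low knockout libraries of 12 weeks overlapped (-0.25 (adjusted p = 0.529) on the log2 scale), the CD11b-high libraries lay just below both, and no library fell under 761 CPM. The overlap depends on the TMM scaling. As a share of the library total, Cd2 was 1379 to 1585 CPM in wild type and 1118 to 1260 CPM in CD11b-low knockout libraries of 12 weeks. In that unit the CD11b-high libraries were at 788 to 930 CPM, and no 2 of these 3 groups overlapped. Cd2 was the only member above 10 CPM in the wild-type mean, and it was still the only one when the minimum was set at 50 CPM. At a minimum of 2 CPM, Lat and Ccl5 joined it. Per kilobase of annotated exon, Cd2 stood at 679 CPM in wild type, against 3.70 for Ccl5, 1.03 for Lat and at most 0.638 for the other members. It made up most of the summed signal of the 36 genes, from 67.5 to 99.3% by library.

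Because of Cd2, the plain sum of the 36 genes hid the pattern of the others. As a share of the library total, the sum was 1397 to 1608 CPM in wild type at 12 weeks and 1320 to 1484 CPM in the CD11b-low knockout libraries of that age. Without Cd2, the other 35 genes summed to 18.3, 22.9 and 11.47 CPM in wild type and to 125.5, 366 and 142 CPM in the CD11b-low knockout libraries at 12 weeks. The CD11b-high knockout libraries had 129, 379 and 157 CPM, and the 4-week libraries of both genotypes had 6.57 to 13.9 CPM. The 6 knockout libraries of 12 weeks therefore lay above all 9 others. These 6 are not 6 independent units, since same-numbered CD11b-low and CD11b-high libraries were taken as pairs. In sorted bulk cells, a change in the number of lymphocytes among the cells and a change in their RNA per cell cannot be told apart. Expression by the sorted macrophages or other cells cannot be told apart from these either.

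**Figure D1:**
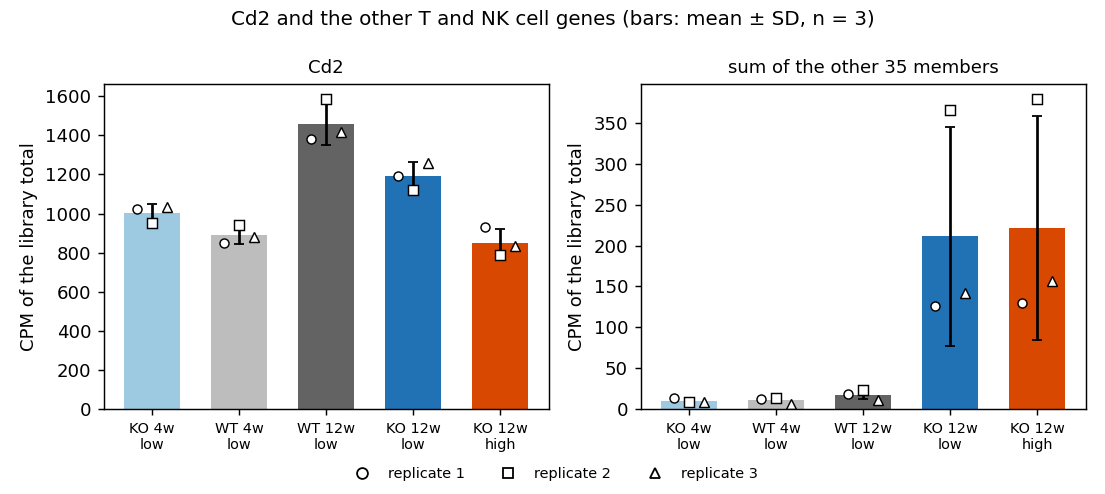
Level of Cd2 (left) and summed level of the other 35 T and NK cell genes (right) in CPM of the library total, by group, with each library as a marker, bars for group means and error bars for the SD of 3 libraries. The Cd2 mean is highest in wild type at 12 weeks, while the sum of the others is 125.5 CPM or more only in the knockout libraries of 12 weeks.

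At 12 weeks, 14 of the 36 genes were higher in CD11b-low knockout cells than in CD11b-low wild-type cells and none was lower (edgeR quasi-likelihood test, adjusted p under 0.05 over 13284 genes). All 5 genes of the T cell receptor and CD3 complex were among the 14, with Lck, Zap70, Skap1, Cd28, Icos, Pdcd1, Cxcr6, Il7r and Il2rb. Among all tested genes, 2.60% were higher and 0.497% were lower in this comparison. The 36 genes were chosen with earlier results of these data known, so such shares describe the set and do not test it. The median log2 fold change was 3.59 over all 36 genes, against 0 over the 25100 genes with a count. In 28 of the 36 the 3 knockout libraries lay above the 3 wild-type libraries without overlap, as did 9.82% of tested genes. The heat map of all 36 genes shows the same split, with a brighter block in the 6 knockout libraries of 12 weeks.

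**Figure D2:**
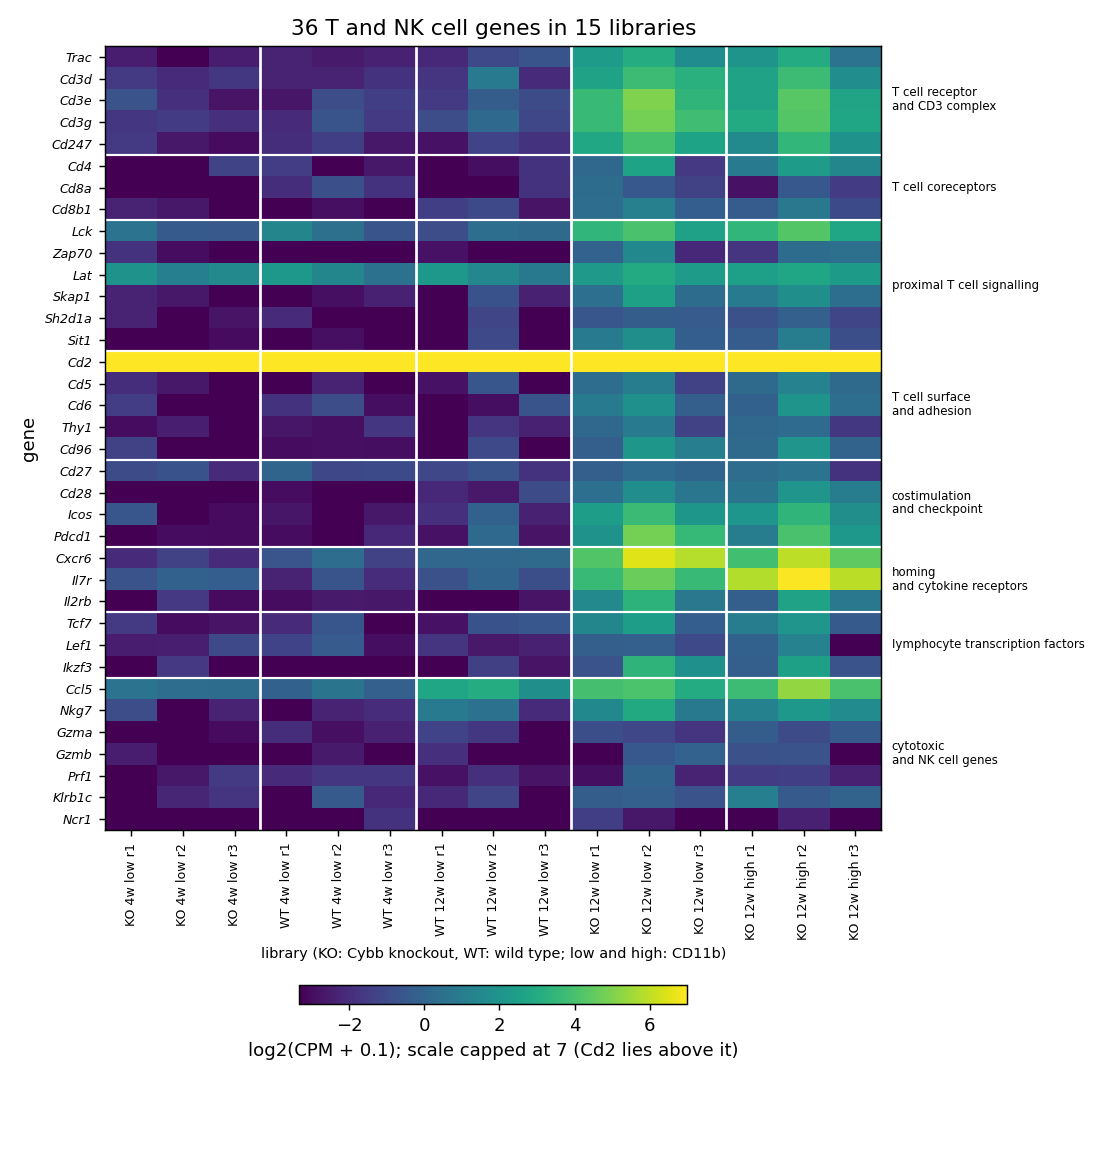
Log2(CPM + 0.1) of the 36 genes (rows, grouped by role) in the 15 libraries (columns, grouped by genotype, age and CD11b), with the colour scale capped at 7. Most rows other than Cd2 are near the bottom of the scale in the 9 libraries of 4 weeks and of wild type and brighter in the 6 knockout libraries of 12 weeks, most of all in replicate 2.

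The knockout libraries of 12 weeks differed among themselves. In the CD11b-low cells replicate 2 held the highest value for 31 of the 35 members with a count there, and in the CD11b-high cells for 32 of 35. In wild type at 12 weeks replicate 2 was highest for 20 of 34. Without CD11b-low knockout replicate 2 the number of members called fell from 14 to 10, and without wild-type replicate 2 it was 14.

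All 5 genes of the T cell receptor and CD3 complex rose in knockout cells of 12 weeks. Trac encodes the constant region of the receptor alpha chain. Trac measured 0.121, 0.382 and 0.548 CPM in the wild-type, 4.91, 8.26 and 3.10 CPM in the CD11b-low knockout and 3.91, 8.02 and 1.43 CPM in the CD11b-high knockout libraries at 12 weeks. Trac at 4 weeks measured 0.106, 0.0687 and 0.0907 CPM in wild-type and 0.0790, 0 and 0.0718 CPM in knockout libraries. Each knockout library of 12 weeks was above every other library, and CD11b-high replicate 3 was the lowest of them. Knockout exceeded wild type among CD11b-low cells at 12 weeks by a log2 difference of 3.95 (SE 0.68, adjusted p = 0.00319).

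Cd3e encodes the epsilon subunit, which pairs with both gamma and delta. Cd3e measured 0.241, 0.732 and 0.411 CPM in the wild-type, 12.2, 32.3 and 10.6 CPM in the CD11b-low knockout and 6.11, 19.9 and 6.35 CPM in the CD11b-high knockout libraries at 12 weeks. Cd3e at 4 weeks measured 0.0529, 0.446 and 0.272 CPM in wild-type and 0.526, 0.169 and 0.0478 CPM in knockout libraries. The 12-week knockout libraries did not overlap with any other, and replicate 2 was highest in both CD11b fractions. The log2 fold change between genotypes at 12 weeks was 5.27 (SE 0.77, adjusted p = 0.000833), and it was 4.58 without knockout replicate 2. Cd3g encodes the gamma subunit. Cd3g measured 0.443, 1.05 and 0.365 CPM in the wild-type, 12.3, 28.8 and 14.3 CPM in the CD11b-low knockout and 7.83, 19.0 and 6.60 CPM in the CD11b-high knockout libraries at 12 weeks. Cd3g at 4 weeks measured 0.132, 0.549 and 0.242 CPM in wild-type and 0.210, 0.254 and 0.167 CPM in knockout libraries. Its groups were separate in the same way, with a genotype log2 fold change at 12 weeks of 4.85 (SE 0.57, adjusted p = 0.000132), or 5.498 without wild-type replicate 2. Cd3d, the delta subunit, showed 1 wild-type library apart from the rest. Cd3d measured 0.201, 1.78 and 0.137 CPM in the wild-type, 6.07, 13.3 and 9.20 CPM in the CD11b-low knockout and 5.99, 13.4 and 3.25 CPM in the CD11b-high knockout libraries at 12 weeks. Cd3d at 4 weeks measured 0.106, 0.103 and 0.181 CPM in wild-type and 0.237, 0.141 and 0.215 CPM in knockout libraries. Wild-type replicate 2 of 12 weeks was well above the other wild-type libraries and still below every knockout library of that age. The genotype log2 fold change of Cd3d was 3.68 (SE 0.70, adjusted p = 0.00664), and 5.77 without that wild-type library. Cd247 encodes the zeta chain, which is also used by NK cell receptors. Cd247 measured 0.0403, 0.318 and 0.183 CPM in the wild-type, 7.26, 15.9 and 6.30 CPM in the CD11b-low knockout and 2.85, 11.2 and 3.72 CPM in the CD11b-high knockout libraries at 12 weeks. Cd247 at 4 weeks measured 0.159, 0.275 and 0.0605 CPM in wild-type and 0.237, 0.0564 and 0.0239 CPM in knockout libraries. Again the knockout libraries of 12 weeks stood apart from all others, with a log2 difference of 5.69 (SE 0.77, adjusted p = 0.000412), or 6.46 without wild-type replicate 2. Cd3e overlaps an antisense gene and Cd247 the opposite-strand gene Pou2f1, and whether the counting used strand is not given in the sources used here. Pou2f1 itself had a log2 fold change of -0.17 (adjusted p = 0.918).

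**Figure D3:**
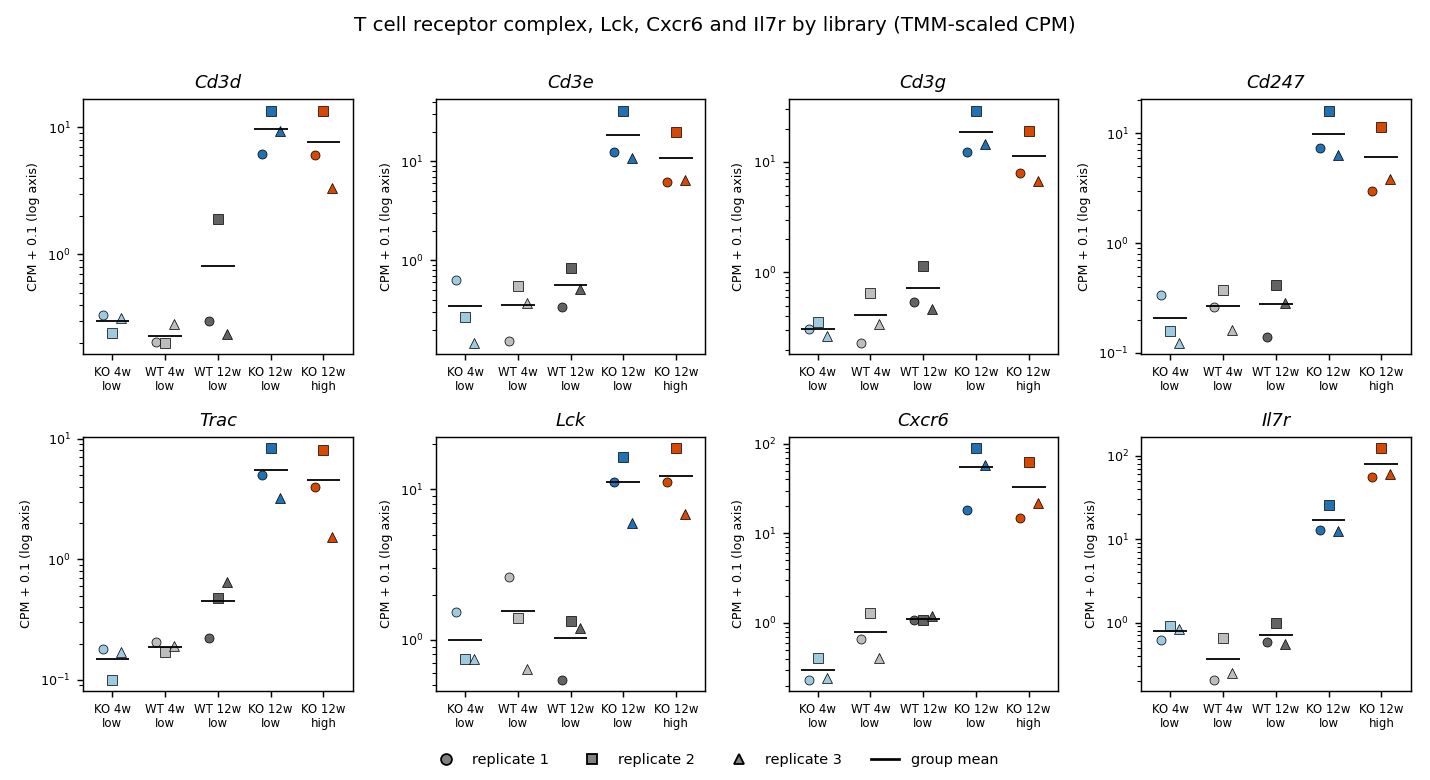
CPM + 0.1 (log axis) of 8 genes in each library by group, with marker shapes for replicates 1 to 3 and lines for group means. In every panel the 6 knockout libraries of 12 weeks lie above the 9 other libraries, and Il7r is the one panel in which all CD11b-high libraries lie above all CD11b-low libraries.

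Cd3g, Cd3d and Cd3e lie side by side on mouse chromosome 9, within chr9:44969572-45009627 (GENCODE M21, GRCm38), and Cd3g and Cd3d are transcribed away from each other from starts 1355 bases apart. Because these 3 genes are neighbours that rose together, and Cxcr6 and Il7r reached the highest levels among the receptors, the 250 bases before the RefSeq start of each are printed (build GRCm38.p6). The windows are chr9:44981536-44981785 on the plus strand for Cd3d, chr9:45009612-45009861 on the minus strand for Cd3e and chr9:44980432-44980681 on the minus strand for Cd3g. For Cxcr6 the window is chr9:123806227-123806476 on the plus strand, and for Il7r it is chr15:9529877-9530126 on the minus strand. GENCODE M21 places the Il7r start further upstream, at 9530176, so the whole Il7r window lies within the gene as annotated there. Sequences run 5′ to 3′ on the strand of the gene, and capitals mark matches, on either strand, to the short core motifs of 5 factor families known in lymphocytes. The RUNX core was searched as TGTGGT and the ETS core was searched as AGGAAG. The GATA core was taken as AGATAA, the core of TCF1 and LEF1 as ATCAAAG, and the core of the E proteins as CAGCTG. No 2 matches overlapped in the windows printed.
Cd3d: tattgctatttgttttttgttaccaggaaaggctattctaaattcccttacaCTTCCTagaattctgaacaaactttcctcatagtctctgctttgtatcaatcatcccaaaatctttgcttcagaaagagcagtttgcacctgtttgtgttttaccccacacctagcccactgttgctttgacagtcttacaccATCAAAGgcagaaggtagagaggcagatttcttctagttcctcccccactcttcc
Cd3e: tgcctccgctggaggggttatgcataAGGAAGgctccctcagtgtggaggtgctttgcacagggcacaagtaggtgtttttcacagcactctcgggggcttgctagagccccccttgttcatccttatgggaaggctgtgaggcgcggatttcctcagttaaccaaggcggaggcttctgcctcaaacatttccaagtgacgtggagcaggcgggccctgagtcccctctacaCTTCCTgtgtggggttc
Cd3g: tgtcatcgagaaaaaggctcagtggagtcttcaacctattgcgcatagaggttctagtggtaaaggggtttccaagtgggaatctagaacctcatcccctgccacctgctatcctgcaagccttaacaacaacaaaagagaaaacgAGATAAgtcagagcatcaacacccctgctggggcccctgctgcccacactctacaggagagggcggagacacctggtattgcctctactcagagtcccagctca
Cxcr6: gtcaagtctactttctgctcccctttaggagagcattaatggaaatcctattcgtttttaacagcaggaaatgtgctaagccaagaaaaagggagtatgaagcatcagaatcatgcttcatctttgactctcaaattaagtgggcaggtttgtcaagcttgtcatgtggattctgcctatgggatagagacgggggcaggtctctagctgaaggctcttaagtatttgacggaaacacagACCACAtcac
Il7r: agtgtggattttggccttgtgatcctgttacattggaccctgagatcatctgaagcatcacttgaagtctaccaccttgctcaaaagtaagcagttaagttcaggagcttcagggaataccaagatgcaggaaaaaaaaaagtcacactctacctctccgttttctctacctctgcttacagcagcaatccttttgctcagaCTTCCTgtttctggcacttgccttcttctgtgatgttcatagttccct
An ETS core was present in the windows of Cd3d, Cd3e and Il7r, the Cd3d window also held the TCF1 and LEF1 core, the Cd3g window held a GATA core and the Cxcr6 window a RUNX core. No motif was found in all 3 CD3 windows. Of 23 members with a window in the table, 14 held an ETS core, 10 a RUNX core, 4 an E protein core and 1 each a GATA or a TCF1 and LEF1 core. Among 32851 windows of the same length in the table, 29.5% held the ETS core, 14% the RUNX core, 13% the E protein core, 9.99% the GATA core and 3.21% the TCF1 and LEF1 core. A member was counted when any of its windows held the core, while these shares are of single windows, so the 2 are not the same measure. A match describes these letters only and does not show that a factor binds.

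The coreceptors, which bind MHC molecules beside the T cell receptor, were much lower than the CD3 genes, and none of the 3 passed the test between genotypes at 12 weeks. Cd4 marks helper T cells. Cd4 measured 0, 0.0318 and 0.183 CPM in the wild-type, 0.976, 6.17 and 0.228 CPM in the CD11b-low knockout and 1.79, 5.16 and 2.60 CPM in the CD11b-high knockout libraries at 12 weeks. Cd4 at 4 weeks measured 0.264, 0 and 0.0605 CPM in wild-type and 0, 0 and 0.335 CPM in knockout libraries. CD11b-low knockout replicate 2 was far above replicates 1 and 3. Among the 7 comparisons Cd4 passed only between wild-type and CD11b-high knockout cells, which were higher by 5.51 (SE 1.46, adjusted p = 0.0194), and this call was lost without CD11b-high replicate 2 or wild-type replicate 1 or 2 (adjusted p from 0.063 to 0.0792). Cd8a and Cd8b1 encode the chains of CD8, which marks cytotoxic T cells. Cd8a measured 0, 0 and 0.183 CPM in the wild-type, 1.16, 0.626 and 0.294 CPM in the CD11b-low knockout and 0.0408, 0.609 and 0.248 CPM in the CD11b-high knockout libraries at 12 weeks. Cd8a at 4 weeks measured 0.159, 0.480 and 0.181 CPM in wild-type and 0, 0 and 0 CPM in knockout libraries. No count of Cd8a was recorded in the 4-week knockout libraries, and the 3 wild-type libraries of that age were all above 0. Against a floor of 3 counts per library, Cd8a was at least 8.84-fold higher at 12 than at 4 weeks in CD11b-low knockout cells (adjusted p = 0.0138), a call lost without knockout replicate 1 of 12 weeks or any knockout library of 4 weeks (adjusted p from 0.0515 to 0.0697). Cd8b1 measured 0.282, 0.382 and 0.0456 CPM in the wild-type, 1.19, 2.15 and 0.750 CPM in the CD11b-low knockout and 0.693, 1.64 and 0.403 CPM in the CD11b-high knockout libraries at 12 weeks. Cd8b1 at 4 weeks measured 0, 0.0343 and 0 CPM in wild-type and 0.105, 0.0564 and 0 CPM in knockout libraries. All knockout libraries of 12 weeks were above all wild-type libraries of that age for Cd8b1, but the genotype log2 fold change of 2.47 (SE 0.83, adjusted p = 0.113) did not pass.

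Of 6 proximal signalling genes, 3 were higher in knockout cells at 12 weeks (Lck, Zap70 and Skap1) and 3 did not pass (Lat, Sh2d1a and Sit1). Lck is the kinase that starts signalling from the receptor. Lck measured 0.443, 1.24 and 1.09 CPM in the wild-type, 11.1, 16.1 and 5.84 CPM in the CD11b-low knockout and 11.01, 18.6 and 6.72 CPM in the CD11b-high knockout libraries at 12 weeks. Lck at 4 weeks measured 2.51, 1.30 and 0.544 CPM in wild-type and 1.42, 0.649 and 0.646 CPM in knockout libraries. A low signal was present in every library, and the 12-week knockout libraries were above all others. Lck differed between genotypes at 12 weeks by 3.56 (SE 0.59, adjusted p = 0.00223). Zap70, the kinase recruited to the phosphorylated zeta chain, was barely counted outside the knockout libraries of 12 weeks. Zap70 measured 0.0403, 0 and 0 CPM in the wild-type, 0.854, 2.68 and 0.131 CPM in the CD11b-low knockout and 0.204, 1.17 and 1.30 CPM in the CD11b-high knockout libraries at 12 weeks. Zap70 at 4 weeks measured 0, 0 and 0 CPM in wild-type and 0.184, 0.0282 and 0 CPM in knockout libraries. The wild-type libraries of 12 weeks held 1 count of Zap70 in all, against 122 in the CD11b-low knockout libraries, a ratio of 98.4 after scaling (exact 95% interval 17.3 to 3916, counting error only, adjusted p = 0.0391). This call was lost without knockout replicate 2 (log2 fold change 4.89) or any 1 of the wild-type libraries, with adjusted p from 0.0792 to 0.178.

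Skap1 is an adaptor that links the T cell receptor to integrin adhesion. Skap1 measured 0, 0.509 and 0.0913 CPM in the wild-type, 1.25, 5.75 and 1.14 CPM in the CD11b-low knockout and 1.83, 3.47 and 1.24 CPM in the CD11b-high knockout libraries at 12 weeks. Skap1 at 4 weeks measured 0, 0.0343 and 0.0907 CPM in wild-type and 0.105, 0.0564 and 0 CPM in knockout libraries. Knockout exceeded wild type by 3.65 (SE 0.96, adjusted p = 0.0482), and by 2.48 (adjusted p = 0.273) without knockout replicate 2. The call was also lost without wild-type replicate 1 or 3 (adjusted p 0.12 and 0.0953), and the value was 5.85 without wild-type replicate 2. Lat, the adaptor phosphorylated by Zap70, was counted at 1.33 CPM or more in every library. Lat measured 4.47, 2.67 and 1.69 CPM in the wild-type, 4.70, 7.84 and 5.19 CPM in the CD11b-low knockout and 5.503, 6.89 and 4.80 CPM in the CD11b-high knockout libraries at 12 weeks. Lat at 4 weeks measured 4.39, 2.54 and 1.33 CPM in wild-type and 3.71, 2.12 and 2.80 CPM in knockout libraries. The knockout libraries of 12 weeks were above the wild-type ones by a narrow gap, and the log2 fold change of 1.003 (SE 0.42, adjusted p = 0.197) did not pass. Sit1, an inhibitory adaptor, had no more than 0.382 CPM in the 9 other libraries. Sit1 measured 0, 0.382 and 0 CPM in the wild-type, 1.74, 3.43 and 0.750 CPM in the CD11b-low knockout and 0.693, 1.97 and 0.465 CPM in the CD11b-high knockout libraries at 12 weeks. Sit1 at 4 weeks measured 0, 0.0343 and 0 CPM in wild-type and 0, 0 and 0.0239 CPM in knockout libraries. Its rise with age in knockout cells passed, at 195 against 1 count (ratio 231.8, exact 95% interval 41.1 to 9203, adjusted p = 0.00404). Sh2d1a, the adaptor of SLAM family receptors, stayed under 1 CPM in every library and passed in no comparison.

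Among surface and adhesion genes other than Cd2, none passed between genotypes at 12 weeks, and levels stayed under 5 CPM. Cd96 is a receptor for CD155 on T and NK cells. Cd96 measured 0, 0.382 and 0 CPM in the wild-type, 0.763, 4.32 and 2.06 CPM in the CD11b-low knockout and 1.10, 4.12 and 0.868 CPM in the CD11b-high knockout libraries at 12 weeks. Cd96 at 4 weeks measured 0.0264, 0.0343 and 0.0302 CPM in wild-type and 0.316, 0 and 0 CPM in knockout libraries. In knockout cells Cd96 rose with age by 4.46 (SE 1.195, adjusted p = 0.0345), and in CD11b-high cells it exceeded wild type by 3.801 (SE 1.19, adjusted p = 0.0403). The rise with age did not pass without knockout replicate 2 or 3 of 12 weeks or 2 or 3 of 4 weeks (adjusted p from 0.0767 to 0.141), and without replicate 1 of 4 weeks no count was left at that age (adjusted p = 0.0195). The excess in CD11b-high cells did not pass without CD11b-high replicate 2 (2.77) or wild-type replicate 1 or 3 (adjusted p from 0.0988 to 0.2), and without wild-type replicate 2 no wild-type count was left (adjusted p = 0.0166). Cd6 is a receptor for ALCAM. Cd6 measured 0, 0.0318 and 0.548 CPM in the wild-type, 1.83, 3.52 and 0.783 CPM in the CD11b-low knockout and 0.815, 3.98 and 1.21 CPM in the CD11b-high knockout libraries at 12 weeks. Cd6 at 4 weeks measured 0.185, 0.446 and 0.0302 CPM in wild-type and 0.263, 0 and 0 CPM in knockout libraries. The rise of Cd6 with age in knockout cells, 4.49 (SE 1.26, adjusted p = 0.0418), was lost without any of the 6 libraries except knockout replicate 1 of 4 weeks, without which no count was left at that age (adjusted p = 0.031). Thy1 is a surface glycoprotein of all mouse T cells. Thy1 measured 0, 0.191 and 0.0913 CPM in the wild-type, 0.976, 1.73 and 0.294 CPM in the CD11b-low knockout and 0.978, 1.12 and 0.217 CPM in the CD11b-high knockout libraries at 12 weeks. Thy1 at 4 weeks measured 0.0529, 0.0343 and 0.212 CPM in wild-type and 0.0263, 0.0846 and 0 CPM in knockout libraries. Thy1 rose with age in knockout cells by 4.67 (SE 1.11, adjusted p = 0.0194), a call lost without replicate 1 or 3 of 4 weeks (adjusted p 0.0847 and 0.107). Cd5, which dampens receptor signalling, ranged from 0 to 0.573 CPM in the 9 other libraries and from 0.294 to 2.30 CPM in the knockout libraries of 12 weeks, and passed in no comparison.

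Costimulatory and checkpoint receptors rose at 12 weeks in 3 of 4 cases, Cd27 being the exception. Pdcd1 encodes PD-1, an inhibitory receptor of activated T cells. Pdcd1 measured 0.0403, 1.05 and 0.0456 CPM in the wild-type, 3.84, 28.8 and 11.9 CPM in the CD11b-low knockout and 1.92, 16.4 and 4.49 CPM in the CD11b-high knockout libraries at 12 weeks. Pdcd1 at 4 weeks measured 0.0264, 0 and 0.121 CPM in wild-type and 0, 0.0282 and 0.0239 CPM in knockout libraries. Every knockout library of 12 weeks exceeded every other library, and replicates differed several-fold. Pdcd1 differed between genotypes at 12 weeks by 5.17 (SE 1.06, adjusted p = 0.0145), with values from 4.23 without knockout replicate 2 to 8.31 without wild-type replicate 2. It missed the threshold without wild-type replicate 1 (adjusted p = 0.0817) or 3 (0.0517). Icos is a costimulatory receptor induced on activation. Icos measured 0.161, 0.828 and 0.0913 CPM in the wild-type, 5.25, 13.0 and 4.27 CPM in the CD11b-low knockout and 4.20, 10.7 and 3.35 CPM in the CD11b-high knockout libraries at 12 weeks. Icos at 4 weeks measured 0.0529, 0 and 0.0605 CPM in wild-type and 0.579, 0 and 0.0239 CPM in knockout libraries. The knockout libraries of 12 weeks were at 3.35 CPM or more and all others at 0.828 CPM or less. Icos differed by 4.29 (SE 0.96, adjusted p = 0.0218), and by 3.63 (adjusted p = 0.0805) without knockout replicate 2. It also missed the threshold without wild-type replicate 1 or 3 (0.102 and 0.0641), and was 5.84 without wild-type replicate 2. Cd28 is the receptor for CD80 and CD86 on antigen-presenting cells. Cd28 measured 0.121, 0.0637 and 0.411 CPM in the wild-type, 1.25, 3.25 and 1.57 CPM in the CD11b-low knockout and 1.47, 4.12 and 1.92 CPM in the CD11b-high knockout libraries at 12 weeks. Cd28 at 4 weeks measured 0.0264, 0 and 0 CPM in wild-type and 0, 0 and 0 CPM in knockout libraries. Genotypes at 12 weeks did not overlap, with a log2 difference of 3.39 (SE 0.73, adjusted p = 0.0192) that was lost without knockout replicate 2 or wild-type replicate 1 or 2 (adjusted p from 0.0713 to 0.0883), and was 4.43 without wild-type replicate 3. With 0 counts in knockout cells at 4 weeks, Cd28 was at least 25.8-fold higher at 12 weeks (adjusted p = 0.000344). Cd27, a receptor of the TNF receptor family, ranged from 0.144 to 0.899 CPM in the 9 other libraries and from 0.186 to 1.41 CPM in the knockout libraries of 12 weeks.

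The 3 receptors for homing and cytokines all rose at 12 weeks, and Cxcr6 and Il7r held the largest CPM values among the 35 genes. Cxcr6, the receptor for CXCL16 and a marker of tissue-resident T cells, was the most abundant of the 35 per length in CD11b-low knockout cells, at 28.5 CPM per kilobase. Cxcr6 measured 0.966, 0.987 and 1.09 CPM in the wild-type, 18.1, 89.2 and 58.0 CPM in the CD11b-low knockout and 14.6, 62.8 and 21.7 CPM in the CD11b-high knockout libraries at 12 weeks. Cxcr6 at 4 weeks measured 0.555, 1.201 and 0.302 CPM in wild-type and 0.132, 0.310 and 0.143 CPM in knockout libraries. The lowest 12-week knockout library had 14.6 CPM and the highest of the others 1.201 CPM, and replicate 1 was the lowest in both CD11b fractions. Cxcr6 differed between genotypes at 12 weeks by 5.76 (SE 0.69, adjusted p = 0.000222). Cxcr6 lies within the span of Fyco1, a gene of the opposite strand, and Fyco1 itself had a log2 fold change of -0.05 (adjusted p = 0.918).

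Il7r encodes the IL-7 receptor alpha chain, carried by naive, memory and innate-like lymphocytes and also used in the TSLP receptor of dendritic cells. Il7r measured 0.483, 0.891 and 0.456 CPM in the wild-type, 12.6, 25.2 and 12.2 CPM in the CD11b-low knockout and 55.8, 123 and 61.0 CPM in the CD11b-high knockout libraries at 12 weeks. Il7r at 4 weeks measured 0.106, 0.549 and 0.151 CPM in wild-type and 0.526, 0.818 and 0.742 CPM in knockout libraries. Values rose in steps from the wild-type to the CD11b-low and the CD11b-high knockout libraries of 12 weeks, with no overlap at either step. The genotype log2 fold change in CD11b-low cells was 4.73 (SE 0.50, adjusted p = 6.29e-05). Il2rb encodes the chain shared by the IL-2 and IL-15 receptors of T and NK cells. Il2rb measured 0, 0 and 0.0456 CPM in the wild-type, 2.81, 10.02 and 1.63 CPM in the CD11b-low knockout and 0.774, 6.09 and 1.64 CPM in the CD11b-high knockout libraries at 12 weeks. Il2rb at 4 weeks measured 0.0264, 0.0687 and 0.0605 CPM in wild-type and 0, 0.226 and 0.0239 CPM in knockout libraries. A single count lay in the 3 wild-type libraries of 12 weeks, against 478 in the CD11b-low knockout libraries, a ratio of 385 (exact 95% interval 68.8 to 15250, adjusted p = 0.00204). The log2 fold change was 8.15, 7.03 without knockout replicate 2 and 7.56 without wild-type replicate 2. Without wild-type replicate 3 no wild-type count was left (adjusted p = 0.0162).

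Of the lymphocyte transcription factors, none passed between genotypes at 12 weeks, although in each the knockout libraries lay above the wild-type ones. Ikzf3 encodes Aiolos, a zinc finger factor of lymphocytes. Ikzf3 measured 0, 0.286 and 0.0456 CPM in the wild-type, 0.519, 10.4 and 3.49 CPM in the CD11b-low knockout and 0.774, 5.81 and 0.527 CPM in the CD11b-high knockout libraries at 12 weeks. Ikzf3 at 4 weeks measured 0, 0 and 0 CPM in wild-type and 0, 0.226 and 0 CPM in knockout libraries. The 2 CD11b fractions of knockout replicate 2 held by far the highest values. Tcf7 encodes TCF1, a factor of naive and memory T cells. Tcf7 measured 0.0403, 0.509 and 0.593 CPM in the wild-type, 2.53, 5.34 and 0.750 CPM in the CD11b-low knockout and 2.00, 4.03 and 0.651 CPM in the CD11b-high knockout libraries at 12 weeks. Tcf7 at 4 weeks measured 0.132, 0.584 and 0 CPM in wild-type and 0.237, 0.0282 and 0.0478 CPM in knockout libraries. The highest values were again in replicate 2. With age in knockout cells Ikzf3 rose by 5.99 (SE 1.5, adjusted p = 0.0322) and Tcf7 by 4.73 (SE 1.14, adjusted p = 0.0205). Ikzf3 lost its call when any of the 6 libraries was left out except knockout replicate 1 of 12 weeks (adjusted p from 0.0532 to 0.142), and was 4.70 without knockout replicate 2 of 12 weeks. Tcf7 missed it without replicate 2 or 3 of 4 weeks (adjusted p 0.111 and 0.116), and ranged from 3.96 to 6.08. Lef1, the partner of TCF1 in naive T cells, was at 0.030 to 0.687 CPM in the 9 other libraries and at 0 to 2.30 CPM in the knockout libraries of 12 weeks, and passed in no comparison.

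Of the 7 cytotoxic and NK cell genes none passed between genotypes at 12 weeks, and the 3 knockout libraries lay apart from wild type only for Klrb1c. Ccl5 is a chemokine of effector T and NK cells that macrophages also make. Ccl5 measured 6.56, 8.21 and 3.47 CPM in the wild-type, 15.3, 16.9 and 7.96 CPM in the CD11b-low knockout and 13.4, 39.9 and 16.1 CPM in the CD11b-high knockout libraries at 12 weeks. Ccl5 at 4 weeks measured 0.819, 1.48 and 0.786 CPM in wild-type and 1.42, 1.18 and 1.17 CPM in knockout libraries. Ccl5 was at 0.786 CPM or more in all 15 libraries and rose with age in both genotypes, by 2.58 (SE 0.46, adjusted p = 0.00368) in wild-type and 3.41 (SE 0.46, adjusted p = 0.000339) in knockout CD11b-low cells. Nkg7 encodes a protein of cytotoxic granules. Nkg7 measured 1.77, 1.34 and 0.137 CPM in the wild-type, 2.746, 7.57 and 1.73 CPM in the CD11b-low knockout and 2.20, 4.41 and 3.10 CPM in the CD11b-high knockout libraries at 12 weeks. Nkg7 at 4 weeks measured 0, 0.103 and 0.151 CPM in wild-type and 0.447, 0 and 0.0957 CPM in knockout libraries. It rose with age by 3.68 (SE 1.08, adjusted p = 0.0275) in wild-type and 4.44 (SE 0.98, adjusted p = 0.0124) in knockout cells. The wild-type call was lost without any of the 6 libraries except replicate 3 of 12 weeks (adjusted p from 0.059 to 0.101), and the knockout call without replicate 2 or 3 of 4 weeks (0.0573 and 0.0852). Without knockout replicate 2 of 12 weeks the rise was 3.62, and without replicate 1 of 4 weeks 6.20. Gzma encodes a granzyme. Gzma measured 0.322, 0.223 and 0 CPM in the wild-type, 0.458, 0.358 and 0.196 CPM in the CD11b-low knockout and 0.734, 0.422 and 0.651 CPM in the CD11b-high knockout libraries at 12 weeks. Gzma at 4 weeks measured 0.159, 0.0343 and 0.0907 CPM in wild-type and 0, 0 and 0.0239 CPM in knockout libraries. The single count at 4 weeks in knockout libraries became 33 at 12 weeks, a ratio of 39.2 (exact 95% interval 6.57 to 1596, adjusted p = 0.0223, and from 0.0691 to 0.116 without replicate 1 of 12 weeks or any library of 4 weeks), and wild-type values at 12 weeks overlapped with those of knockout. Gzmb, a second granzyme, and the untested pore protein Prf1 did not exceed 0.895 CPM in any library. Klrb1c (NK1.1) was at most 0.652 CPM in the 9 other libraries and 0.522 to 2.08 CPM in the knockout libraries of 12 weeks. Ncr1 (NKp46) had 0 counts in 11 of 15 libraries and at most 0.275 CPM.

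At 4 weeks no member passed between knockout and wild-type CD11b-low cells, in either direction. Among all tested genes 0.0151% were higher and 0.0828% lower at this age. The median log2 fold change of the 36 genes was -0.08, against 0 over all genes with a count. At an unadjusted p under 0.05 there were 4 members, Il7r in the higher direction and Cd8a, Cxcr6 and Gzma in the lower, where 1.50% of tested genes had one. DESeq2 called 0 members, while the edgeR fit with no count filter called 2. Cxcr6 differed by -1.79 (SE 0.77, adjusted p = 1) and Il7r by 1.42 (SE 0.55, adjusted p = 1), with overlapping libraries in both. Cd8a and Gzma were the only 2 members with separate libraries, both lower in knockout on 0 and 1 counts, as were 4.72% of tested genes.

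**Figure D4:**
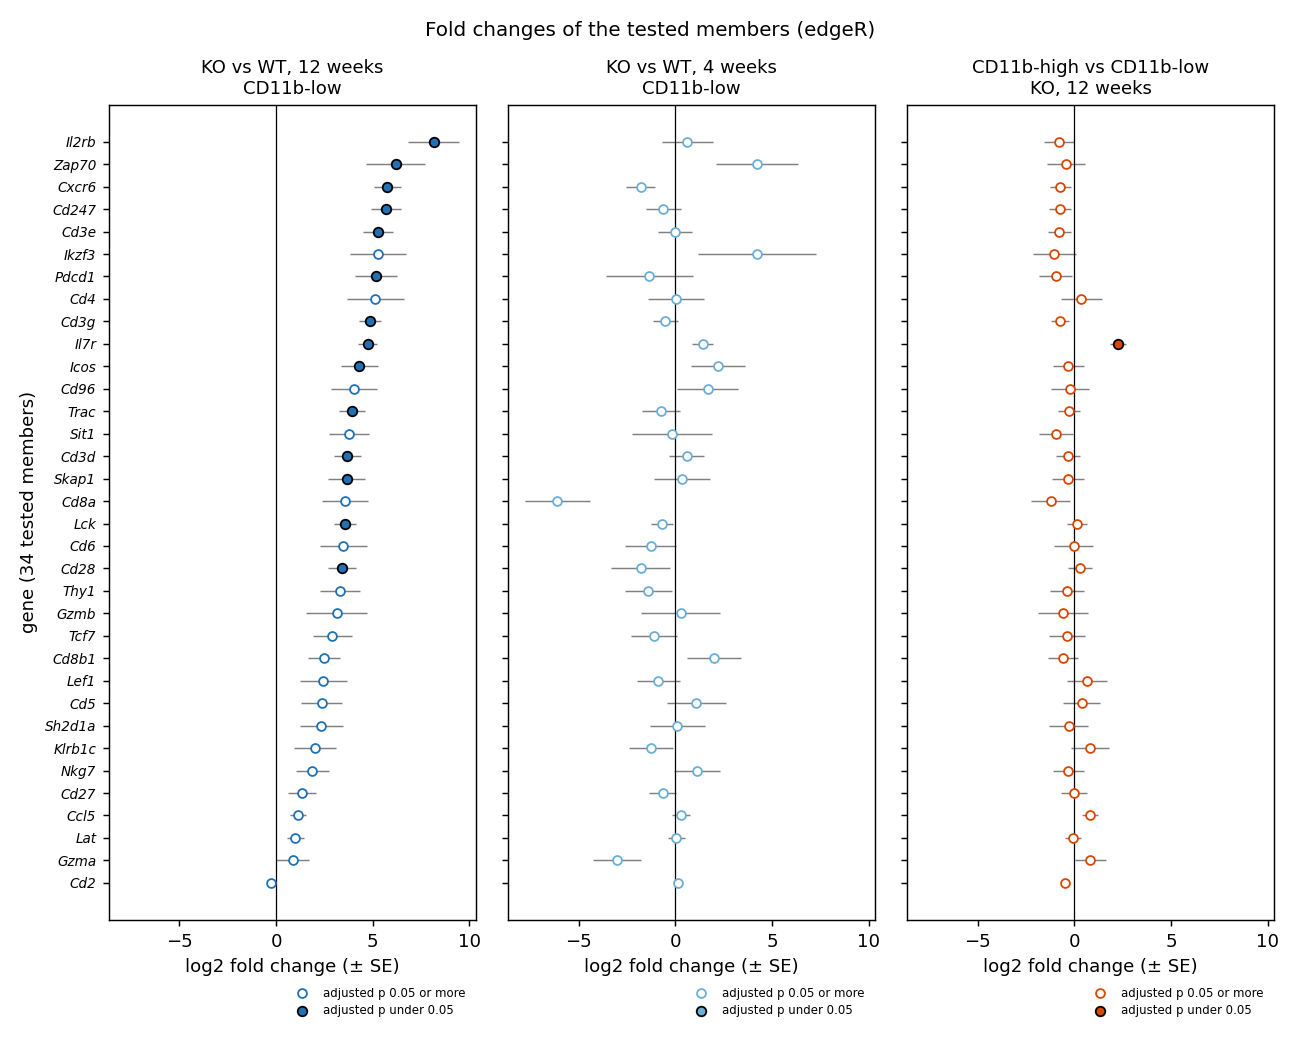
Log2 fold changes with standard errors of the 34 tested genes in 3 comparisons, ordered by the genotype difference at 12 weeks, with filled points for an adjusted p under 0.05. Filled points number 14 for knockout against wild type at 12 weeks, 0 at 4 weeks and 1 (Il7r) for CD11b-high against CD11b-low knockout cells.

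Whether the genotype difference changed with age was tested as an interaction. It passed for Cd3g, Cd247, Lck and Cxcr6, each with a larger knockout excess at 12 than at 4 weeks, where 0.248% of tested genes passed upward and 0% downward. The difference of log2 fold changes was 7.55 (SE 0.999, adjusted p = 0.00453) for Cxcr6 and 6.29 (SE 1.198, adjusted p = 0.0349) for Cd247. For Cd3g it was 5.36 (SE 0.85, adjusted p = 0.0177) and for Lck 4.25 (SE 0.80, adjusted p = 0.0343). At an unadjusted p under 0.05 there were 16 of the 34 tested members, and 8.30% of all tested genes. The median of the difference over the 36 genes was 3.30, against 0 over all genes with a count. Cxcr6 kept its call without any 1 of the 12 libraries, with values down to 6.91. Cd3g missed the threshold without knockout replicate 3 or wild-type replicate 2 of 4 weeks (adjusted p 0.0655 and 0.0752). Cd247 missed it without any 1 of 7 libraries (0.0734 to 0.176) and Lck without any 1 of 8 (0.0544 to 0.124).

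With age in knockout CD11b-low cells, 24 of the 36 genes rose and none fell, where 4.81% of tested genes rose and 2.08% fell. In 31 genes the 12-week libraries lay above the 4-week ones, as did 19.0% of tested genes. This comparison shares its 12-week knockout libraries with the 12-week genotype comparison. The rise reached 6.21 (SE 0.80, adjusted p = 0.00027) for Cd3e, 6.61 (SE 0.81, adjusted p = 0.00016) for Trac, 8.13 (SE 0.79, adjusted p = 3.72e-05) for Cxcr6 and 4.58 (SE 0.48, adjusted p = 5.32e-05) for Il7r. The value of Cd3e was 7.40 without knockout replicate 1 of 4 weeks and 5.53 without knockout replicate 2 of 12 weeks. Pdcd1 had 2 counts in the 3 libraries of 4 weeks and 1457 in those of 12 weeks, a ratio of 866 (exact 95% interval 239 to 7158, adjusted p = 0.00156). In wild-type cells 6 of the 36 rose with age (Cd3d, Cd2, Cd8b1, Cd28, Ccl5 and Nkg7) and none fell, where 8.79% of tested genes rose and 8.39% fell. Cd2 rose by 0.96 (SE 0.21, adjusted p = 0.00766) in wild type, without overlap, and by 0.59 (SE 0.21, adjusted p = 0.0944) in knockout cells, which did not pass. Cd3d rose by 2.47 (SE 0.83, adjusted p = 0.0498) in wild type, and by 0.38 (adjusted p = 0.801) without wild-type replicate 2 of 12 weeks. It also missed the threshold without any wild-type library of 4 weeks (adjusted p from 0.0992 to 0.147). Cd28 and Cd8b1 each had 1 count in the 3 wild-type libraries of 4 weeks, against 14 (ratio 17.9, exact 95% interval 2.73 to 758) and 20 (ratio 25.6, exact 95% interval 4.09 to 1061) at 12 weeks. Cd28 missed the threshold without wild-type replicate 3 of 12 weeks or any wild-type library of 4 weeks (adjusted p from 0.0568 to 0.137), and Cd8b1 without 4 of the 6 libraries (0.0514 to 0.115).

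Between the CD11b fractions of knockout mice at 12 weeks, Il7r was the single member to pass. It was higher in CD11b-high cells by 2.26 (SE 0.42, adjusted p = 0.0184), where 0.572% of tested genes were higher and 0.120% lower. The call was lost without CD11b-high replicate 2 or any 1 of the CD11b-low libraries, with adjusted p from 0.0574 to 0.133 and log2 fold changes from 1.80 to 2.64. Cd3e at -0.77 (adjusted p = 0.774) and Cd3g at -0.73 (adjusted p = 0.684) did not pass. With the replicate number as a block the values were -0.80 for Cd3e (adjusted p = 0.622) and -0.78 for Cd3g (adjusted p = 0.251), and Il7r was at 2.25 (adjusted p = 0.000673). Within all 3 same-numbered pairs, 12 of the 34 tested members were lower in CD11b-high cells, Cd3e, Cd3g, Cd247 and Trac among them, as were 17.8% of all tested genes. Il7r, Cd28 and Gzma were higher in all 3 pairs, as were 20.5% of all tested genes. The counts of Il7r per count of Cd3e were 1.03, 0.779 and 1.15 in CD11b-low and 9.12, 6.17 and 9.60 in CD11b-high libraries, 2 groups without overlap. Counts of Cd3g per count of Cd3e overlapped, at 0.891 to 1.35 and 0.955 to 1.28. Dendritic cell markers, a list of 10, were summed as CPM of the library total. They came to 84.3 to 125.7 CPM in CD11b-low and 125.4 to 426 CPM in CD11b-high libraries. These 2 ranges just overlapped, with CD11b-high replicate 2 the highest. The overlap was of CD11b-low replicate 2 with CD11b-high replicate 1 (TMM factors 0.990 and 0.832), so it depends on this scale. None of the 10 was at 0 in all libraries of either group, and none passed the test between them. The 10 neutrophil markers summed to 181.5 to 231 and 376 to 513.5 CPM, with Ly6g at 0 and S100a9 past the test of 7. Their part in the Il7r result was not tested.

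Set against CD11b-low wild-type cells, the CD11b-high knockout cells of 12 weeks had 17 members higher and 1 lower, where 9.23% of tested genes were higher and 5.60% lower. This comparison shares its wild-type libraries with the genotype comparison of CD11b-low cells. Cd4, Cd96 and Ccl5 passed here beside the 14 genes named for CD11b-low cells. Ccl5 reached 1.92 (SE 0.43, adjusted p = 0.00607), and 1.27 (adjusted p = 0.0594) without CD11b-high replicate 2. Il7r reached 6.99 (SE 0.54, adjusted p = 6.28e-07), Cd3e 4.50 (SE 0.75, adjusted p = 0.000717) and Cxcr6 5.02 (SE 0.67, adjusted p = 0.000108). Without CD11b-high replicate 2, Cd3e was at 3.71 and Cxcr6 at 4.16. Cd2 was the 1 lower member, by -0.74 (SE 0.21, adjusted p = 0.0287), with no overlap. It did not pass without CD11b-high replicate 2 or 3 or wild-type replicate 2 (adjusted p from 0.0931 to 0.126), nor with only the groups compared in the fit (adjusted p = 0.233). Pdcd1, Skap1 and Zap70 also missed the threshold without certain single libraries, CD11b-high replicate 2 among them for each. Between the CD11b fractions of knockout cells Cd2 was lower in CD11b-high cells without overlap, by -0.49 (SE 0.21, adjusted p = 0.432), which did not pass.

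Of 14 tested other genes of the T cell receptor pathway, 3 were higher and 0 lower in CD11b-low knockout than in wild-type cells at 12 weeks. Of all tested genes, 2.60% were higher and 0.497% lower in that comparison. With age, 6 were higher and 1 lower in knockout cells, where 4.81% of all tested genes were higher and 2.08% lower. In wild-type cells 0 were higher and 1 lower with age, where 8.79% of all tested genes were higher and 8.39% lower. Trbc2 measured 0.282, 1.08 and 0.274 CPM in the wild-type, 4.58, 11 and 4.70 CPM in the CD11b-low knockout and 4.44, 8.39 and 2.696 CPM in the CD11b-high knockout libraries at 12 weeks. Trbc2 is a constant region of the receptor beta chain and was separate between genotypes, with a log2 difference of 3.58 (SE 0.64, adjusted p = 0.00447). Trbc1, a near-identical copy whose reads the counting may have divided otherwise, gave 3.93 (SE 0.82, adjusted p = 0.0132). The beta chain genes were thus separate between genotypes like Trac.

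Of 9 tested other costimulation and checkpoint genes, 4 were higher and 1 lower, as were 2.60% and 0.497% of all tested genes. Ctla4, an inhibitory receptor of activated and regulatory T cells, had 1 count in wild type against 251 in CD11b-low knockout libraries (ratio 202, exact 95% interval 35.99 to 8024, adjusted p = 0.00158). Tigit, another inhibitory receptor, had 2 against 204 (ratio 82.2, exact 95% interval 22.5 to 684, adjusted p = 0.00471). Cd40lg, the helper T cell ligand of CD40, had 0 counts in wild type at 12 weeks and was at least 3.56-fold higher in CD11b-low knockout cells (adjusted p = 0.0365). Tnfrsf9 (4-1BB) differed by 3.46 (SE 0.79, adjusted p = 0.0224). The lower gene was Tnfrsf18 (GITR), like Cd2 well expressed in wild-type macrophages. It is named here after its values were seen. Tnfrsf18 measured 43.1, 37.7 and 35.1 CPM in the wild-type, 18.9, 25.1 and 23.5 CPM in the CD11b-low knockout and 14.8, 15.9 and 13.2 CPM in the CD11b-high knockout libraries at 12 weeks. Wild-type libraries were all above knockout libraries, with a log2 difference of -0.78 (SE 0.20, adjusted p = 0.0404).

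Other lymphocyte transcription factors were higher in 3 of 9 tested and lower in 0, among them Gata3 by 4.60 (SE 1.03, adjusted p = 0.02) and Runx3, on 2 against 56 counts (ratio 22.6, exact 95% interval 5.96 to 191, adjusted p = 0.0317). Of 7 tested NK and cytotoxic genes beyond the members, Ctsw, a protease of cytotoxic cells, was higher by 3.64 (SE 0.96, adjusted p = 0.0498) and none was lower. Of 13 tested genes of tissue residence and homing, 3 were higher and 0 lower. Among them S1pr1, the receptor that guides exit from tissue, differed by 4.43 (SE 0.98, adjusted p = 0.0188) and Gpr183, an oxysterol receptor, by 3.13 (SE 0.73, adjusted p = 0.0252). Beside each of these lists, 2.60% of all tested genes were higher and 0.497% lower.

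Genes of gamma-delta T cells and of the IL-17 lineage were higher in 10 of 15 tested and lower in 0 in CD11b-low knockout cells at 12 weeks, with a median log2 fold change of 4.55 over the 17 listed genes in the table. Cells of this lineage are innate-like T cells that make IL-17 at barrier surfaces. Of all tested genes, 2.60% were higher and 0.497% lower between genotypes at 12 weeks. At 4 weeks 0 of 15 passed, where 0.0151% of all tested genes were higher and 0.0828% lower. Between the CD11b fractions 0 passed, where 0.572% of all tested genes were higher and 0.120% lower. Trdv4 measured 0.0403, 0.255 and 0 CPM in the wild-type, 1.43, 16.6 and 8.91 CPM in the CD11b-low knockout and 1.88, 12.8 and 3.87 CPM in the CD11b-high knockout libraries at 12 weeks. Trdv4 is a variable segment of the delta chain. Tcrg-C1 measured 0.0403, 0.191 and 0.0456 CPM in the wild-type, 2.53, 14.5 and 7.90 CPM in the CD11b-low knockout and 2.45, 8.86 and 3.13 CPM in the CD11b-high knockout libraries at 12 weeks. Tcrg-C1 is a constant region of the gamma chain with near-identical copies, whose reads may be assigned to another copy. For both genes CD11b-low and CD11b-high replicate 1 were the lowest of the knockout libraries of 12 weeks, and all of these exceeded all other libraries. Trdv4 differed by 6.30 (SE 1.02, adjusted p = 0.0022) and Tcrg-C1 by 6.33 (SE 0.97, adjusted p = 0.00127). Its copy Tcrg-C2 had 2 counts in wild type against 215 in CD11b-low knockout libraries (ratio 86.7, exact 95% interval 23.7 to 720.2, adjusted p = 0.00183).

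Cd163l1, a scavenger receptor of gamma-delta T cells, had 2 counts in wild type against 676 in CD11b-low knockout libraries (ratio 272.5, exact 95% interval 75.1 to 2255, adjusted p = 0.00136). Il17a encodes the lineage cytokine. Il17a measured 0, 0.0318 and 0 CPM in the wild-type, 0.214, 1.16 and 0.914 CPM in the CD11b-low knockout and 0.285, 0.938 and 0.558 CPM in the CD11b-high knockout libraries at 12 weeks. Only 1 count of Il17a lay in the wild-type libraries of 12 weeks, against 74 in the CD11b-low knockout libraries (ratio 59.7, exact 95% interval 10.4 to 2388, adjusted p = 0.0242), and none lay in the 6 libraries of 4 weeks. Of the 13 listed effector cytokines, 11 had too few counts for testing.

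**Figure D5:**
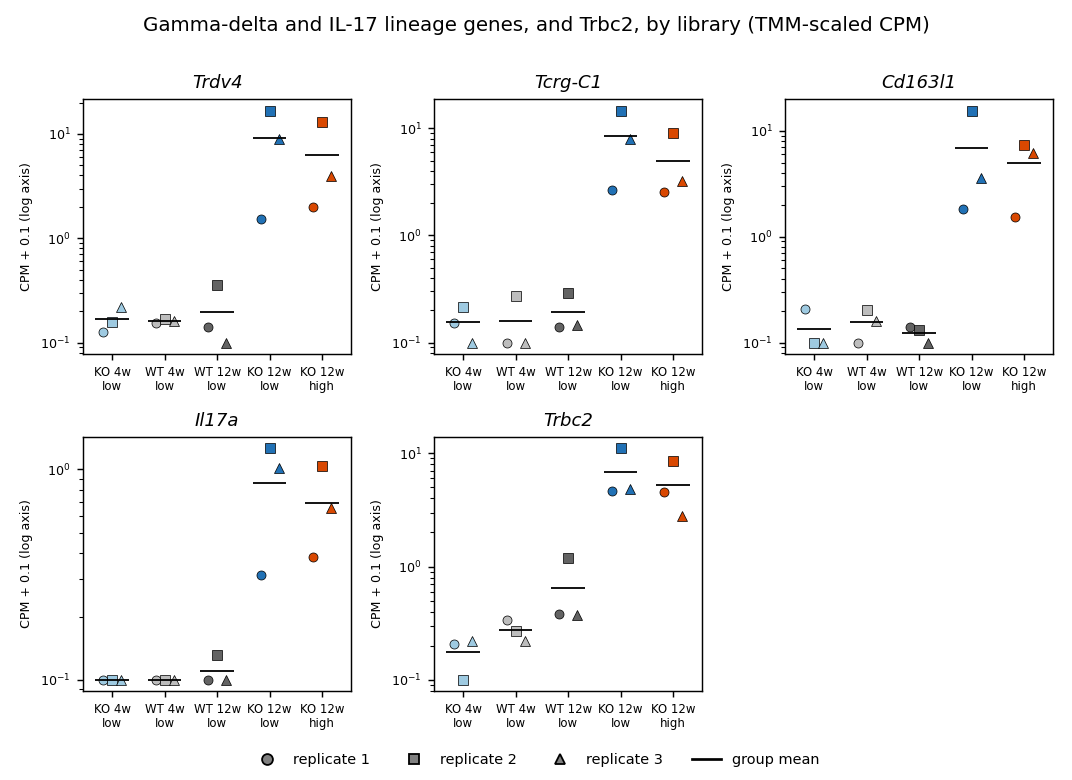
CPM + 0.1 (log axis) of 5 genes in each library by group, with marker shapes for replicates 1 to 3 and lines for group means. The gamma-delta and IL-17 genes are highest in replicate 2 and lowest in replicate 1 of the CD11b-low knockout libraries of 12 weeks, while Trbc2 is about equal in replicates 1 and 3.

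Markers of other cells were read beside these results, with their sums in CPM of the library total. Between genotypes at 12 weeks, 2.60% of all tested genes were higher and 0.497% lower in CD11b-low knockout cells. The 8 NK cell markers summed to 3.11 to 7.58 CPM in CD11b-low and 5.52 to 11.7 CPM in CD11b-high knockout libraries at 12 weeks, against 0.750 to 2.28 CPM in wild type, where Ncr1, Klre1 and Eomes were at 0, and none of the 4 tested passed between the genotypes in CD11b-low cells. Klrk1 passed as higher in CD11b-high knockout than in wild-type cells. With age in CD11b-low knockout cells 3 of the 4 rose (Klrd1, Klrk1 and Gzma), where 4.81% of all tested genes rose. The sums at 4 weeks were 0.154 to 0.549 CPM in these cells. In wild-type cells 0 of the 4 passed with age. The 12 B and plasma cell markers summed to 77.0 to 125 CPM in wild-type and 142 to 222 CPM in CD11b-low knockout libraries. Pax5 was at 0 in both, and Blk, which gamma-delta T cells also express, was the only marker past the test of 10. Dendritic cell markers summed to 56.8 to 76.3 and 84.3 to 126 CPM, with Ccl17 past the test of 10. Group 2 innate lymphoid and mast cell markers summed to 0.715 to 1.24 and 2.12 to 4.37 CPM, with Gata3 past the test of 5 and Il13, Mcpt4 and Fcer1a at 0. Il1rl1 (adjusted p = 0.0586) and Kit (0.222) were higher without overlap but did not pass, while Areg and Cpa3 overlapped. In CD11b-high knockout against wild-type cells Il1rl1, Gata3 and Kit passed as higher, where 9.23% of all tested genes were higher. Neutrophil markers summed to 96.8 to 124 and 181.5 to 231 CPM without overlap, with S100a8 past the test of 7, Ly6g at 0 in both groups and Camp at 0 in knockout libraries. Lung epithelial markers summed to 72.2 to 140.1 and 41.8 to 82.1 CPM, with Sftpc lower of 7 tested. Hemoglobin and other erythroid markers went the other way, at 494 to 1356 CPM in wild-type and 68.0 to 123.5 CPM in knockout libraries, with 4 of 7 lower. The part of these cells in the changes of the T cell genes was not tested.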

How the data were processed

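The authors deposited a table of raw read counts per gene for 15 libraries, made with STAR and featureCounts of Subread, per the submitters' processing notes. Tool versions, genome build and strand setting are not given in the sources used here. Of 40780 rows, 270 repeated the identifiers of 160 genes and were dropped. The first row of each gene identifier was kept, which left 40510 genes.

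Genes were filtered with filterByExpr (minimum count 10, total 15), scaled by TMM and tested in 1 fit over all 5 groups with edgeR 4.0.16 (R 4.3.3, quasi-likelihood test, Benjamini-Hochberg adjustment over 13284 genes, threshold 0.05). DESeq2 1.42.0, library totals, no filter, fits of the compared groups alone, a replicate block and leaving out each library were alternatives. The test was tested on simulated data. Intervals and floors of 3 counts per library cover counting error only, since reads without molecular identifiers are not independent molecules. Promoter windows came from RefSeq (GRCm38.p6) and matched 23 of 36 members. Windows were not printed or searched for Ikzf3, Thy1, Il2rb, Icos, Cd28, Sh2d1a, Cd6, Cd8b1, Cd2, Trac, Skap1, Cd4 and Ccl5. Trdc was not analysed here, and a few genes of the other lists are not reported here by name, though list counts include them.

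The members and gene lists were chosen with earlier results of these data known. Members were named with every library's value where they passed in at least 1 comparison, and other lists by up to 4 genes of smallest p at 12 weeks. Same-numbered libraries of the CD11b fractions deviated together (correlations 0.587, 0.502 and 0.159), so the numbers were taken as pairs there. Same-numbered correlations between knockout and wild-type CD11b-low cells of 12 weeks were 0.484, 0.036 and 0.351. Differently numbered ones there reached 0.342. No pairs were taken between other groups. The labels call the replicates independent pools.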

Additional observations from a re-analysis of the deposited data

Results flagged for a closer look

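The difference between knockout and wild-type CD11b-low cells changed with age for 4 T cell genes, by the test of the interaction itself (edgeR quasi-likelihood test). The genotype log2 fold change at 12 weeks exceeded that at 4 weeks by 7.55 for Cxcr6 (adjusted p = 0.00453), by 6.30 for Cd247 (adjusted p = 0.0349), by 5.36 for Cd3g (adjusted p = 0.0177) and by 4.25 for Lck (adjusted p = 0.0343). Cxcr6 kept its call when any single library was left out, while Cd247, Cd3g and Lck each missed the threshold without certain single libraries. Of the 34 genes tested, 16 had an unadjusted p under 0.05 for this difference, as did 8.30% of all tested genes.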

How the results depend on the processing

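Counts of members past the threshold were recomputed under each alternative. Between genotypes at 12 weeks the count of 14 became 26 with no filter, and 2 replaced 0 at 4 weeks. Between the CD11b fractions 1 became 0 with only the groups compared. With age in wild type 6 became 12 with no filter and 1 with only the groups compared. The interaction count of 4 became 9 with DESeq2, 2 with library totals, 15 with no filter and 7 with the replicate block. With the replicate block the other counts were 17, 0, 1, 21, 24 and 6, in the order 12 weeks, 4 weeks, CD11b fractions, CD11b-high against wild type, age in knockout and age in wild type. Leaving out 1 library gave 9 to 16, 0 to 0, 0 to 1, 11 to 19, 16 to 23 and 2 to 6 in that order, and 1 to 5 for the interaction. No direction of a called value reversed. Library totals moved the median of all genes by -0.333 with age in knockout, -0.225 with age in wild type and -0.107 in the interaction. At a minimum of 2 CPM, 3 members in place of 1 had a macrophage baseline. With 3 pools a group and levels under 1 CPM outside knockout cells of 12 weeks for most members, depth limits the precision of the lower value in each comparison.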

Other observations

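Ratios between counts of T cell genes differed among the knockout libraries of 12 weeks, and these differences were not tested. Counts of Trdv4, a delta chain segment, per count of Trac were 0.292, 2.01 and 2.87 in CD11b-low and 0.479, 1.60 and 2.72 in CD11b-high replicates 1, 2 and 3. Counts of Tcrg-C1 per count of Trac were 0.516, 1.76 and 2.55, and 0.625, 1.11 and 2.20. In both fractions replicate 1 was lowest and replicate 3 highest. Same-numbered fractions were taken as pairs, so the 2 orders are not independent. Counts of Cd4 per count of Trac were 0.199, 0.747 and 0.0737, and 0.458, 0.643 and 1.83, with no such order shared by the fractions.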
